A study of Mus musculus with 66 samples.

Results

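The histone deacetylases examined here were the 10 genes Hdac1, Hdac2, Hdac3, Hdac4, Hdac5, Hdac6, Hdac7, Hdac8, Hdac10 and Hdac11. They were chosen by name from the zinc-dependent deacetylases, a family that includes the targets of valproic acid. Hdac9, of class IIa, was not among the genes chosen. Of the 10, 8 had a row in the gene expression table, each with 1 RefSeq transcript, among 9288 transcripts that could be tested. Hdac7 and Hdac11 had no row there and were followed only at their promoters.

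Deacetylases remove acetyl groups from lysines of histones and other proteins, against the acetyltransferases that add them. Class I enzymes (Hdac1, Hdac2, Hdac3, Hdac8) are mostly nuclear and work, apart from Hdac8, inside corepressor complexes. Class IIa enzymes (here Hdac4, Hdac5 and Hdac7, without Hdac9) shuttle between nucleus and cytoplasm under kinase control and bind Mef2 factors. Class IIb (Hdac6, Hdac10) acts largely in the cytoplasm, and Hdac11 forms class IV. Valproic acid, a short-chain fatty acid, inhibits mainly class I enzymes, and is added to intestinal organoid medium to hold cells in a stem-like state. Inhibition acts on the enzyme, so the mRNA and promoter measurements below do not report enzyme activity.

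Mouse small intestinal organoids of the Lgr5 GFPDTR/+ line were grown in 3 media that all contained EGF and Noggin. ENR added R-Spondin-1 and was the reference culture, a mixture of stem and differentiated cells. CV was ENR with CHIR99021 (3 µM, an inhibitor of the kinase Gsk3) and valproic acid (1 mM), which enriches stem cells. EN lacked R-Spondin-1, which depletes stem cells and enriches enterocytes. The 2 compounds were always given together, so a difference between CV and ENR cannot be assigned to either one, and medium and time in culture cannot be told apart. RNA came from 4 libraries per culture, ATAC-seq (open chromatin) from 4, and each histone mark from 3. The labels do not say whether libraries came from separate organoid lines, so p-values measure the spread between these libraries. The 3 comparisons share cultures and are not independent of each other.

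Total estimated counts ran from 5630977 to 8859757 per RNA library. Values are given as CPM, counts scaled to a common library size after TMM normalization, which equalises the bulk of transcripts between libraries. A transcript was called at an adjusted p under 0.01 in edgeR's quasi-likelihood test. In EN all 6 transcripts of the stem cell list and all 6 of the proliferation list were lower than in CV, and all 6 of the enterocyte list were higher. The summed CPM of the proliferation markers was 1020 to 1064 in CV, 1395 to 1460 in ENR and 157 to 166 in EN. The stem markers summed to 602 to 652, 1741 to 1888 and 38.8 to 45.3 CPM, a gap between CV and ENR that Olfm4 carried, with mean CPM of 10.9 in CV, 1229 in ENR and 0.594 in EN. Between CV and ENR, 4 of the 6 stem transcripts were called lower in CV and Cd44 higher. Of the secretory lists, those of goblet, enteroendocrine and tuft cells were also higher in EN than in CV and than in ENR, with all 4 goblet, 3 enteroendocrine and 2 tuft transcripts called. Their median log2 differences from CV were 5.67, 6.34 and 5.52, beside 1.87 for the enterocyte list, so EN differed from CV in more than enterocyte markers. The Paneth list was instead lowest in EN. It summed to 2502 to 2832 CPM in CV, 3965 to 4217 in ENR and 1500 to 1713 in EN. Markers of cells other than epithelium summed to 3.58 to 5.39 CPM in CV, 8.31 to 9.98 in ENR and 23.7 to 29.5 in EN. That list of 5 measured transcripts was mostly Vim (20.5 to 26.1 CPM in EN), Vim and Ptprc were called higher in EN than in CV, and Acta2, Col1a1 and Col1a2 averaged below 1 CPM in every culture, Acta2 being listed at 0 in ENR. In these bulk samples, fewer cells of a type and less RNA per cell cannot be told apart, and the part of cell composition in the differences below was not tested.

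The promoters that the chromatin results turn on are shown first. Hdac2 is shown because its mRNA fell the most, Hdac6 because its mRNA and its open chromatin went opposite ways, Hdac4, Hdac5 and Hdac11 because their H3K27 acetylation differed between cultures, and Hdac7 because its openness did. Of the 4 RefSeq starts of Hdac7, 2 lie in that region and 1 of these is shown. Each sequence is the 300 bases from 250 before to 50 after a RefSeq start site, placed in mm9 by an exact single match and written 5′ to 3′ on the gene's strand. The capitals mark GC boxes, GGGCGG on either strand, the element bound by Sp1-family factors.
Hdac2, chr10:36694100-36694399, plus strand: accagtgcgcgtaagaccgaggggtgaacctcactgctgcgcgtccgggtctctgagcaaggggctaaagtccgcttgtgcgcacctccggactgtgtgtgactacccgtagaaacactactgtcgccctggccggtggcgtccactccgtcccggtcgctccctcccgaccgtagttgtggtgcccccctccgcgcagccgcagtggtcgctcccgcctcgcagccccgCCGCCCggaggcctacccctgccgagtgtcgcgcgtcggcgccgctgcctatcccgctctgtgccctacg
Hdac4, chr1:94076869-94077168, minus strand: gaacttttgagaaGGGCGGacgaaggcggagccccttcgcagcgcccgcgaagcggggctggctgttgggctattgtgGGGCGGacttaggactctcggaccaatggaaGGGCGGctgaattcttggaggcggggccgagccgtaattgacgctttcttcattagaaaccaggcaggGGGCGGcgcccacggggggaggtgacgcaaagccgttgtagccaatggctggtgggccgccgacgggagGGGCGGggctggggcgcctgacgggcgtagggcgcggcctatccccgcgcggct
Hdac5, chr11:102091437-102091736, minus strand: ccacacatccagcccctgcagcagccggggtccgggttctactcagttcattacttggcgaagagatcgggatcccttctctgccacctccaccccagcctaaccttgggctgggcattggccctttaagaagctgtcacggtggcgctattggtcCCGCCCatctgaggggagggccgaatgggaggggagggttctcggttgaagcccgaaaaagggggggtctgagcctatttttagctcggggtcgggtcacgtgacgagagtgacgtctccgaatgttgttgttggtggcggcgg
Hdac6, chrX:7524966-7525265, minus strand: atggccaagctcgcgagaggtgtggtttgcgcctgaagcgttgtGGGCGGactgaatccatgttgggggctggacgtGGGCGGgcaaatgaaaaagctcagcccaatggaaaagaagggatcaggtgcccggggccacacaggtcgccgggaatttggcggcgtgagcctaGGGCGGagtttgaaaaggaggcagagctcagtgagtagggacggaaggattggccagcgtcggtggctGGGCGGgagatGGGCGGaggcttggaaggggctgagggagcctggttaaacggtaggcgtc
Hdac7, chr15:97661877-97662176, minus strand: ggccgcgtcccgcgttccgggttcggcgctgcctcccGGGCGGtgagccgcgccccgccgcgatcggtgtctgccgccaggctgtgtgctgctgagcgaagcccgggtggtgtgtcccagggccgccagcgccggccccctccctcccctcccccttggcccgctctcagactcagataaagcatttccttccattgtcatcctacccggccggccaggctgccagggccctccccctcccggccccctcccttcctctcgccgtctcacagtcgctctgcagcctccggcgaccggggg
Hdac11, chr6:91106559-91106858, plus strand: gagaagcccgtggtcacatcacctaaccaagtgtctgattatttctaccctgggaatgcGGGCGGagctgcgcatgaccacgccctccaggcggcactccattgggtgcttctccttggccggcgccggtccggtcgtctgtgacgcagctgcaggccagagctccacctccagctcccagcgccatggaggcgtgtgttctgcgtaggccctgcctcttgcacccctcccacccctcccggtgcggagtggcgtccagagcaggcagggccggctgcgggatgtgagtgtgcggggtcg

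All 6 promoters held more CG dinucleotides than the median promoter, with 36 in Hdac2, 32 in Hdac4, 31 in Hdac7, 22 in Hdac11, 20 in Hdac6 and 18 in Hdac5. The median over 32851 promoters of the same length was 7 and the upper quartile 20. Of the promoters examined but not shown, the other Hdac7 start in the region held 35, Hdac1 33 and Hdac10 17. Hdac8 held 6, and the Hdac7 starts outside the region 5 and 6, below the median. Hdac4 and Hdac6 each held 5 GC boxes, and the others shown held 1 each. Among those not shown, Hdac1 held 3 and Hdac10 1, while Hdac8 and the other Hdac7 starts held none. A GC box was present in 35.7% of all these promoters. The E2F letters TTTNNCGC (5.17% of promoters), the TCF letters CTTTGAT (3.73%) and the HNF4 letters CAAAGTCCA (0.475%) matched none of the promoters examined for 9 members on either strand, which says only that these letters are not in these windows.

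Between CV and EN, 6 of the 8 measured members were called, 4 lower and 2 higher, where 76.4% of all transcripts were called (41.2% lower and 35.2% higher), so the count itself does not set the family apart. Hdac1, Hdac2, Hdac3 and Hdac6 were lower in EN and Hdac5 and Hdac10 higher, although Hdac3 turned to 0.035 on mRNA copies and Hdac10 to -0.12 with spike-in library sizes. The median log2 difference of the 8 was -0.43, beside -0.08 over all transcripts.

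**Figure D1:**
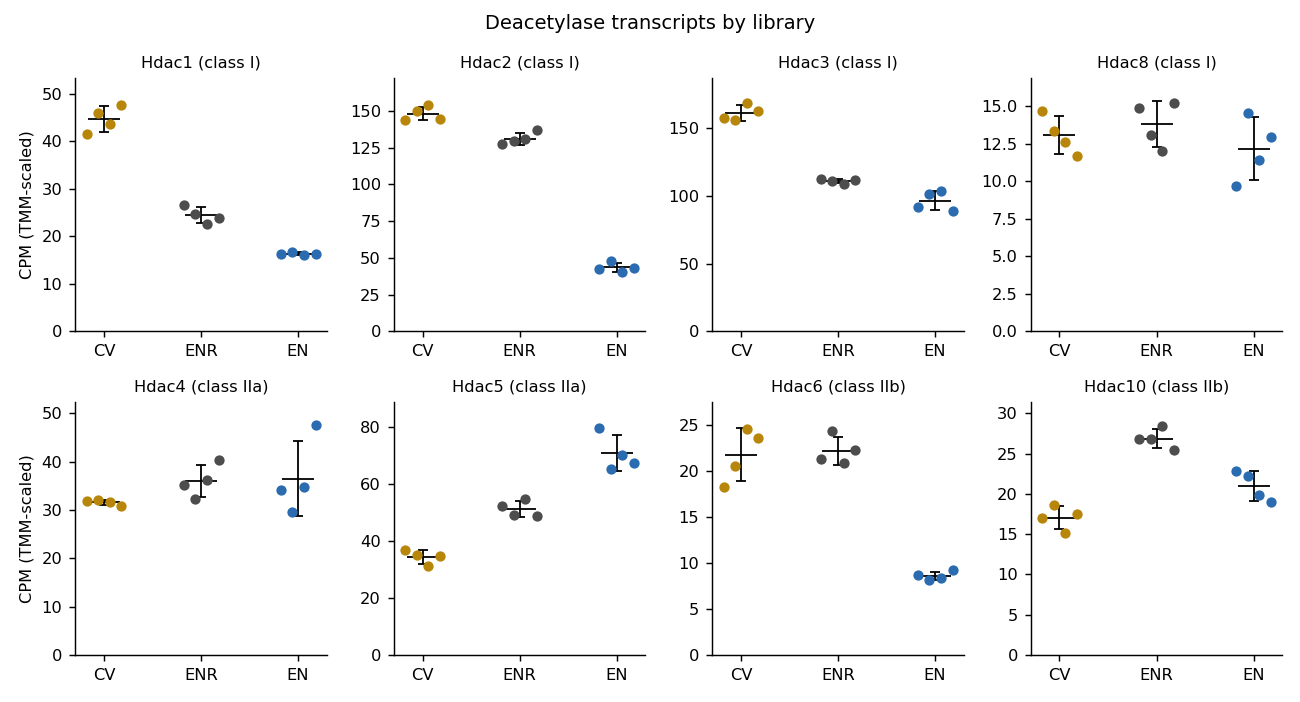
CPM of the 8 measured deacetylase transcripts (vertical axes, starting at 0) in the 4 libraries of each culture (points), with the mean and SD (black). Hdac1, Hdac2 and Hdac3 step down from CV through ENR to EN on this TMM scale (on mRNA copies Hdac1 and Hdac3 are lowest in ENR), Hdac5 steps up (not from ENR to EN with spike-in library sizes), Hdac6 falls only in EN, and Hdac10 is highest in ENR (in EN on mRNA copies).

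Hdac2 (NM_008229.2), a catalytic subunit of the NuRD, Sin3 and CoREST complexes, showed the largest change of the family. Its CPM was 144, 150, 154 and 145 in CV, 127, 129, 131 and 137 in ENR, and 42.3, 48.0, 40.7 and 42.9 in EN. The EN libraries lay far below both other cultures, and CV lay just above ENR. Hdac2 was 3.42-fold lower in EN than in CV (log2 difference -1.77, SE 0.05, adjusted p = 3.59e-14) and 3.03-fold lower than in ENR (adjusted p = 1.69e-13). Its difference between CV and ENR was 0.18 (adjusted p = 0.00233), a call that was lost with DESeq2 (adjusted p = 0.0113) and without CV library 3 (0.0101) or ENR library 1 (0.0102), with spike-in library sizes (0.747) and on mRNA copies (0.31).

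Hdac1 (NM_008228.2), the paralogue that shares these complexes, differed in its course. It measured 41.5, 45.9, 43.7 and 47.7 CPM in CV, 26.6, 24.7, 22.6 and 23.8 in ENR, and 16.2, 16.7, 16.1 and 16.3 in EN. The 3 cultures did not overlap. Hdac1 was 2.74-fold lower in EN than in CV (log2 -1.46, SE 0.07, adjusted p = 2.95e-11), and 1.83-fold higher in CV than in ENR (log2 0.87, adjusted p = 2e-08). So Hdac1 stood apart in CV, whereas Hdac2 stood apart in EN. In each library the ratio of Hdac2 to Hdac1 TPM, a length-corrected level, was 3.26 ± 0.22 in CV, 5.30 ± 0.47 in ENR and 2.61 ± 0.14 in EN (SD, n = 4), and the 3 ranges did not overlap. No scaling between libraries enters this ratio.

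Hdac3 (NM_010411.2), the catalytic subunit of the NCoR/SMRT complexes, changed less. It measured 158, 156, 169 and 163 CPM in CV, 112, 111, 109 and 112 in ENR, and 91.9, 102, 104 and 89.1 in EN. Each culture was again separate from the next. The log2 difference was -0.75 between EN and CV (adjusted p = 1.02e-09), 0.54 between CV and ENR (adjusted p = 9.4e-08) and -0.21 between EN and ENR (adjusted p = 0.00154). Hdac8 (NM_027382.4), the class I enzyme that acts outside the corepressor complexes and deacetylates cohesin, measured 11.7 to 14.7 CPM in CV, 12 to 15.2 in ENR and 9.65 to 14.6 in EN. Its libraries overlapped in all comparisons and none was called, the 95% interval of EN minus CV being -0.40 to 0.17 on the log2 scale. On log2(TPM + 1) Hdac8 was lower in EN than in CV (-0.40, adjusted p = 0.00383 in limma), while on mRNA copies it was 0.59 (adjusted p = 0.0197). Between EN and ENR the call turned with the scale, Hdac8 being called lower with spike-in library sizes (-0.72, adjusted p = 0.00292 in edgeR) and higher on mRNA copies (0.81, adjusted p = 0.00172 in limma).

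Of the 2 measured class IIa transcripts, 1 was called, in the opposite direction to class I. Hdac5 (XM_011248752.2), a Mef2 corepressor, measured 37.1, 35.1, 31.1 and 34.7 CPM in CV, 52.4, 49.3, 54.7 and 49 in ENR, and 79.9, 65.5, 70.3 and 67.7 in EN. Its order was thus the reverse of that of Hdac1, again without overlap. Hdac5 was 2.06-fold higher in EN than in CV (log2 1.04, SE 0.07, adjusted p = 2.04e-09), and 1.49-fold lower in CV than in ENR (log2 -0.57, adjusted p = 5.49e-06). Hdac4 (XM_017319479.1), its close relative, measured 30.8 to 32.0 CPM in CV, 32.2 to 40.3 in ENR and 29.5 to 47.5 in EN. Hdac4 was not called in any comparison (log2 0.22, 95% interval -0.02 to 0.47 between EN and CV), and EN library 4 gave its highest value. On mRNA copies it was called higher in EN (0.81 against CV, adjusted p = 0.000707 in limma), while with spike-in library sizes it was -0.19.

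The class IIb pair split. Hdac6 (XM_006527567.2), the tubulin and Hsp90 deacetylase, measured 18.3, 20.6, 24.7 and 23.6 CPM in CV, 21.4, 24.4, 21.0 and 22.3 in ENR, and 8.71, 8.14, 8.38 and 9.21 in EN. CV and ENR overlapped, and EN was below both. It was 2.52-fold lower in EN than in CV (log2 -1.33, SE 0.11, adjusted p = 1.68e-08) and 2.57-fold lower than in ENR (adjusted p = 1.59e-08). Its CV to ENR difference of -0.03 had a 95% interval of -0.24 to 0.18. Hdac10 (NM_199198.2), which acts as a polyamine deacetylase, measured 17.0, 18.6, 15.1 and 17.5 CPM in CV, 26.8, 26.8, 28.4 and 25.4 in ENR, and 22.8, 22.3, 19.8 and 19.0 in EN. It was highest in ENR, by 1.57-fold over CV (log2 difference CV minus ENR -0.66, adjusted p = 6.8e-06) and 1.28-fold over EN (adjusted p = 0.00142). The EN to CV difference of Hdac10 (0.30, adjusted p = 0.00603) lost its call without CV library 1 (adjusted p = 0.0132), CV library 3 (0.0223), EN library 1 (0.0254) or EN library 2 (0.0174), and its sign turned on the log2(TPM + 1) scale (-0.018) and with spike-in library sizes (-0.12).

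Against ENR, the reference, the family count was close to the background in both comparisons. In EN, 6 of 8 were called, 5 lower and 1 higher, where 72.7% of all transcripts were (37.2% lower and 35.5% higher). In CV, 5 of 8 were called where 60% were (30.2% higher and 29.8% lower), namely Hdac1, Hdac2 and Hdac3 higher and Hdac5 and Hdac10 lower. Hdac8 of class I and Hdac4 and Hdac6 of class II were not called by TMM. The Hdac2 call was lost in the settings given above. Hdac3 was not called with spike-in library sizes (0.45, adjusted p = 0.0327 in edgeR) or on mRNA copies (0.74, adjusted p = 0.0211 in limma). With the count this near the background, no pattern by class is read from these calls.

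The size and, for some members, the sign of these differences depend on how libraries are scaled. The median over all transcripts shifted by -0.49 between EN and CV when library sizes came from the ERCC spike-ins, by -0.34 on log2(TPM + 1), and by 0.62 on log2(mRNA copies + 1), the submitters' own spike-in based scale, so the 2 spike-in based scales moved it in opposite directions. Summed mRNA copies ranged from 498750 to 1577575 between the ENR libraries alone. Hdac1, Hdac2 and Hdac6 were lower in EN than in CV and Hdac5 higher under each of these 4 scales, although Hdac6 lost its call on mRNA copies (adjusted p = 0.0109). Hdac3 was -0.75 by TMM and 0.035 on mRNA copies, against the 0.62 shift of all transcripts. Between EN and ENR, the values on mRNA copies were 0.42 for Hdac1, 0.77 for Hdac3 and 0.65 for Hdac10, turned from negative, against a shift of 0.88, Hdac3 then being called higher (adjusted p = 0.0055) where by TMM it was called lower, and Hdac5 was -0.031 with spike-in library sizes against a shift of -0.52. Between CV and ENR, none of the 5 called members turned, but only 3 were called with spike-in library sizes and 1, Hdac1, on mRNA copies.

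**Figure D2:**
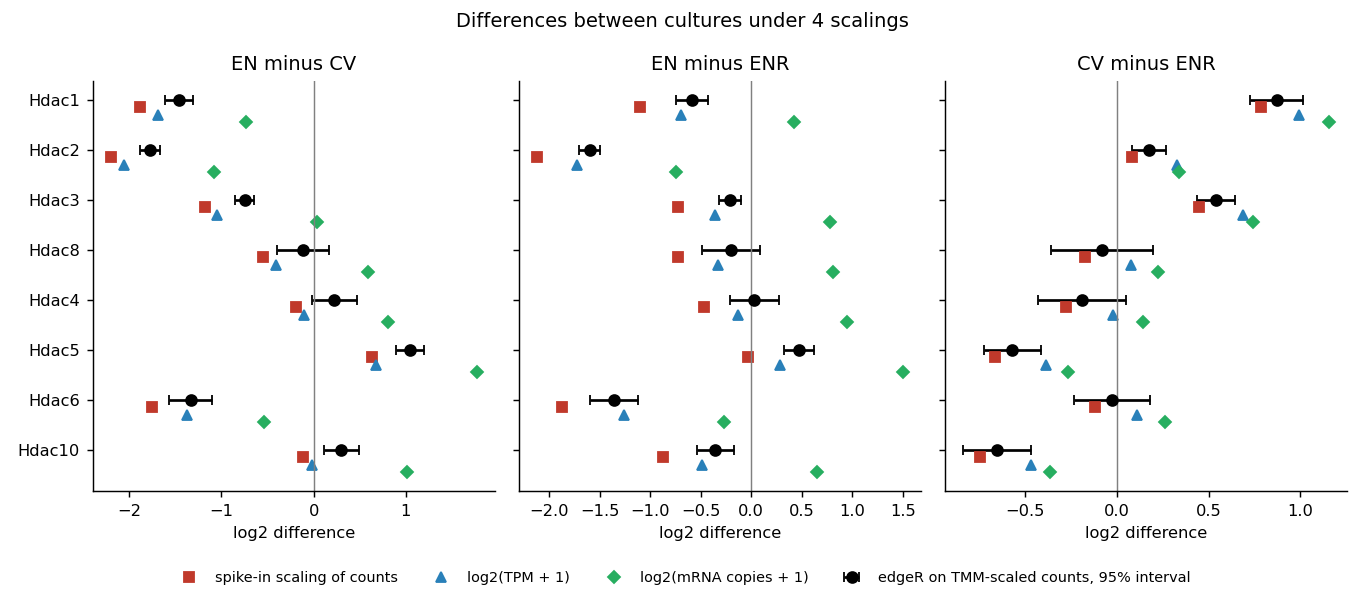
Log2 differences of the 8 members in the 3 comparisons (horizontal axes, separate in each panel) by edgeR on TMM-scaled counts with 95% intervals (black) and under 3 other scales. Spike-in scaling of counts moves members left and mRNA copies move them right in both EN comparisons, while the order of the members changes little.

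Compared within a library, where no such scaling enters, the make-up of the family shifted. By TPM, Hdac3 and Hdac2 were the 2 most abundant members in every culture. In CV, Hdac3 (139 ± 5.19 TPM, SD, n = 4) was above Hdac2 (128 ± 3.19), then came Hdac1 (39.4 ± 2.61), while Hdac8, Hdac10, Hdac5 and Hdac6 lay between 9.05 and 13.2 with each overlapping its neighbour, and Hdac4 was lowest at 6.35. In ENR, Hdac2 led (102 ± 3.35 against 86.0 ± 1.10 for Hdac3), and Hdac1 (19.3) overlapped Hdac10 (16.9), as Hdac5 (14.5) did Hdac8 (12.5). In EN, Hdac3 (66.8 ± 4.25) was 2.22 times Hdac2 (30.1 ± 1.97), Hdac5 had moved up to the third place (17.9 ± 1.86), Hdac10, Hdac1 and Hdac8 overlapped in sequence between 9.84 and 11.8, and Hdac6 was last at 2.87. The 8 transcripts together made 358 ± 7.01 TPM in CV, 266 ± 3.75 in ENR and 157 ± 3.84 in EN. Unlike the order within a library, this sum depends on scaling when cultures are compared. On mRNA copies, Hdac3 alone averaged 91.7 in CV, 56.5 in ENR and 94.0 in EN.

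Class I transcripts made 89.3% ± 0.41 of the summed TPM in CV, 82.6% ± 0.58 in ENR and 75.4% ± 1.99 in EN (SD, n = 4). The ranges did not overlap. Class IIa made 4.81% ± 0.33 in CV, 7.90% ± 0.37 in ENR and 15.2% ± 1.64 in EN, and class IIb made 5.86%, 9.48% and 9.36%. Between CV and EN the share of Hdac2 differed most, with 35.7% in CV, 38.3% in ENR and 19.2% in EN, followed by Hdac5, with 3.04%, 5.46% and 11.5%. Hdac3, although lower in CPM, held a larger share in EN (42.6%) than in ENR (32.4%) or CV (38.9%). These shares are over 8 measured transcripts, without Hdac7, Hdac9 and Hdac11, and no test was run on them.

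**Figure D3:**
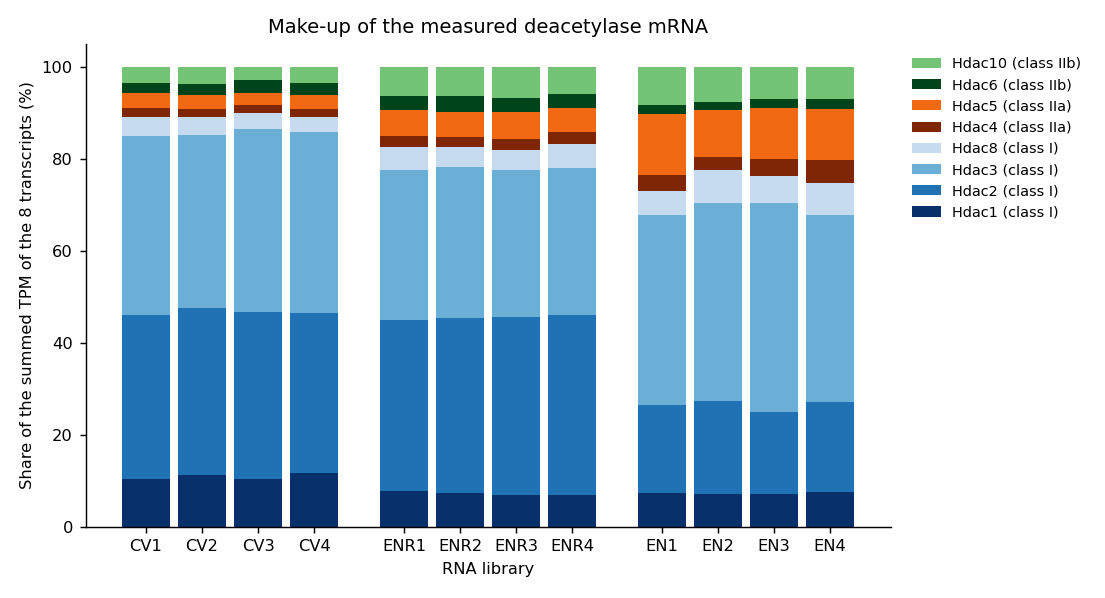
Share of each member in the summed TPM of the 8 measured deacetylase transcripts (vertical axis, percent) in each RNA library (bars). Class I (blue) takes 89.1 to 89.9% in the CV libraries and 73.0 to 77.6% in the EN libraries, and class IIa (brown and orange) grows from CV to EN.

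The transcripts whose log2 CPM tracked a member most closely were sought for the 3 members with the widest range of culture means, among 7999 transcripts. For Hdac2 these were Pnpt1, a mitochondrial polyribonucleotide nucleotidyltransferase (r = 0.999 over 12 libraries), Cct8, a chaperonin subunit, and Umps, an enzyme of pyrimidine synthesis (both 0.998). For Hdac1 they were Grpel1 (0.994), Cadm1 (0.994) and Btaf1 (0.992), and for Hdac6 Nxt1 (0.994), Mpzl2 (0.990) and Trub1 (0.990). With 12 libraries in 3 groups such values are common: 1056 transcripts reached r over 0.95 with Hdac2, 397 with Hdac1 and 891 with Hdac6. They describe a shared order of the cultures.

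Chromatin was read at 10 regions within 500 bp of an annotated GENCODE start of 9 members, among 94469 regions in mm9. The scores are the submitters' normalized read counts, and a region was called at an adjusted p under 0.05 in limma over all regions of a dataset. Scores normalized between libraries can hide a change shared by all regions. Differences in a mark are therefore relative to other regions, and a change in total acetylation was not tested. No GENCODE start of Hdac4 had a region within 1000 bp. The RefSeq promoter of Hdac4 shown above does lie inside a region, chr1:94075747-94077886, and that region is given in addition, having been picked after its place was seen.

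Hdac4 had the largest H3K27ac difference of the family. H3K27ac, a mark of active promoters and enhancers, scored 66, 67 and 57 at this region in CV, 208, 154 and 136 in ENR, and 268, 214 and 225 in EN. CV lay far below both other cultures, and ENR below EN by less than the test could call (0.52, adjusted p = 0.271). The log2 difference was 1.88 between EN and CV (SE 0.22, adjusted p = 5.54e-07) and -1.36 between CV and ENR (adjusted p = 0.000483), the latter no longer called without a trend on the mean (0.204). That setting called 0 of the 94215 regions tested for H3K27ac between CV and ENR. ATAC was also higher in EN than in CV (310 to 384 against 228 to 279, log2 0.44, adjusted p = 0.000911), which was 0.068 under quantile normalization (adjusted p = 0.57). Beside this, Hdac4 mRNA was not called in any comparison of TMM-scaled counts.

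At the 10 regions, H3K27ac was called at 2 between EN and CV, both higher in EN, where 7.03% of all regions and 19.0% of regions within 500 bp of any start were called. Hdac11, the class IV enzyme, scored 38, 67 and 79 in CV, 154, 126 and 131 in ENR, and 187, 185 and 113 in EN at chr6:91106429-91107838. Its CV libraries were below all others, whereas ENR and EN overlapped. The log2 difference was 1.41 between EN and CV (SE 0.27, adjusted p = 0.000673) and -1.20 between CV and ENR (adjusted p = 0.0113). Without a trend on the mean neither was called (adjusted p = 0.117 and 0.259). That setting called 924 of the 94215 regions tested between EN and CV and 0 between CV and ENR. Between CV and ENR, leaving out CV library 3 gave -0.90 (adjusted p = 0.0645), ENR library 1 -1.12 (0.101), ENR library 2 -1.26 (0.0556), ENR library 4 -1.23 (0.0858) and EN library 3 -1.20 (0.0591).

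The main Hdac5 promoter, chr11:102090428-102091851, scored 10, 43 and 48 for H3K27ac in CV, 47, 49 and 49 in ENR, and 77, 70 and 75 in EN. EN was above both other cultures, as it was for Hdac5 mRNA. The difference between EN and CV was 1.38 (SE 0.41, adjusted p = 0.0342), but CV library 3 scored far below the other two, and without it the difference was 0.69 (adjusted p = 0.212). Without any one of the 3 ENR or the 3 EN libraries it was 1.35 to 1.42 and not called either (adjusted p from 0.0548 to 0.157). H3K4me3, the mark of active promoters, scored 57, 61 and 62 there in CV, 73, 70 and 75 in ENR and 124, 94 and 70 in EN, which did not pass (0.63 between EN and CV, adjusted p = 0.105). A second Hdac5 region inside the gene, chr11:102079712-102080455, was not called in any dataset. It came nearest for H3K4me3, with scores of 21, 15 and 19 in CV, 7, 8 and 9 in ENR and 12, 9 and 12 in EN. CV lay above both other cultures (CV minus ENR 1.10, adjusted p = 0.0525), and the difference was called without a trend on the mean (0.0424), without a filter on low scores (0.0445) and without EN library 1, 2 or 4 (0.0352, 0.0338 and 0.0353).

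Between CV and ENR, 1 of the 10 regions, that of Hdac11, was called for H3K27ac (1.83% of all regions were, and 6.82% of promoter regions). The median log2 difference of the 10 was -0.63, beside -0.06 over all promoter regions and 0.33 over all regions. The last 2 depend on scaling, being -0.049 and 0.0072 under quantile normalization. Between EN and ENR none was called by limma at H3K27ac (1.57% of all regions and 3.72% of promoter regions were), with 1 of the 10 at an unadjusted p under 0.05 (Hdac7). None of the 10 was called for H3K4me3 or H3K27me3 by limma in any comparison. For H3K4me3, 4.9% of all regions and 9.6% of promoter regions were called between EN and CV, 6.18% and 5.72% between EN and ENR, and 1.13% and 0.935% between CV and ENR. For H3K27me3, the mark of Polycomb repression, these were 0.528% and 0.37%, 0.0127% and 0.0498%, and 0.74% and 1.6%. At unadjusted p under 0.05, H3K4me3 had 3 regions between EN and CV and 2 between CV and ENR, and H3K27me3 had 1, Hdac6 between CV and ENR.

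Hdac7, a class IIa enzyme whose mRNA is not in the table, stood out in open chromatin. Its region, chr15:97661348-97662633, had ATAC scores of 27, 32, 19 and 17 in CV, 59, 65, 47 and 64 in ENR, and 34, 34, 23 and 32 in EN. ENR was above both other cultures without overlap. The log2 difference was -1.30 for CV minus ENR (SE 0.20, adjusted p = 0.000226) and -0.92 for EN minus ENR (adjusted p = 0.0024). H3K27ac was also highest in ENR, with 29, 14 and 37 in CV, 40, 98 and 97 in ENR, and 24, 33 and 19 in EN. The H3K27ac differences of CV and EN from ENR just missed the threshold (adjusted p = 0.058 and 0.063). H3K4me3 scored 49, 46 and 38 in CV against 88, 94 and 152 in ENR, which did not pass (adjusted p = 0.193), and its EN scores of 136, 70 and 40 spanned both.

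Open chromatin was called at 2 of the 10 regions in each comparison, where 35.2% of all regions were called between EN and CV, 24.0% between EN and ENR and 15.8% between CV and ENR. Among promoter regions the shares called were 34.5%, 19.8% and 14.6%. Hdac6 at chrX:7524129-7525326 measured 65, 79, 81 and 78 in CV, 114, 89, 82 and 92 in ENR, and 130, 127, 107 and 118 in EN. EN was above CV in every library (log2 0.66, SE 0.12, adjusted p = 0.000312), although Hdac6 mRNA was lower in EN. Its difference between EN and ENR (0.36, adjusted p = 0.0388) lost its call in 7 of 12 leave-one-out fits, among them those without ENR library 3 (adjusted p = 0.116) and ENR library 2 (0.0967). Hdac11 was also more open in EN than in CV, with 154 to 215 against 113 to 136 (log2 0.48, adjusted p = 0.00494), a call lost under quantile normalization (adjusted p = 0.124).

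Of the class I promoters, only that of Hdac3 was called in openness in the main fit, between CV and ENR. Hdac2 at chr10:36693828-36695590 scored 199 to 286 in CV, 195 to 240 in ENR and 245 to 327 in EN. It was thus not lower in EN, where Hdac2 mRNA was lowest. The EN to CV difference was 0.25 (95% interval 0.02 to 0.49, adjusted p = 0.0927), and its sign turned under quantile normalization (-0.087). It was called in limma without CV library 1 (adjusted p = 0.0143) or EN library 1 (0.0487). Every EN library lay above every ENR library (log2 0.31, adjusted p = 0.0578). That difference was called without CV library 1 (0.0297) or EN library 1 (0.0313). Hdac1 at chr4:129218634-129220321 scored 79 to 98, 85 to 96 and 79 to 109, and these ranges overlapped. Hdac3 scored 86 to 95 in CV and 66 to 78 in ENR (log2 0.33, adjusted p = 0.0479), a call lost without any single CV or ENR library (adjusted p from 0.0513 to 0.123) or without EN library 4 (0.0545), and Rell2 also starts within 500 bp of this region. Hdac8, on the X chromosome, had the lowest ATAC scores of the 10, from 8 to 21.

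**Figure D4:**
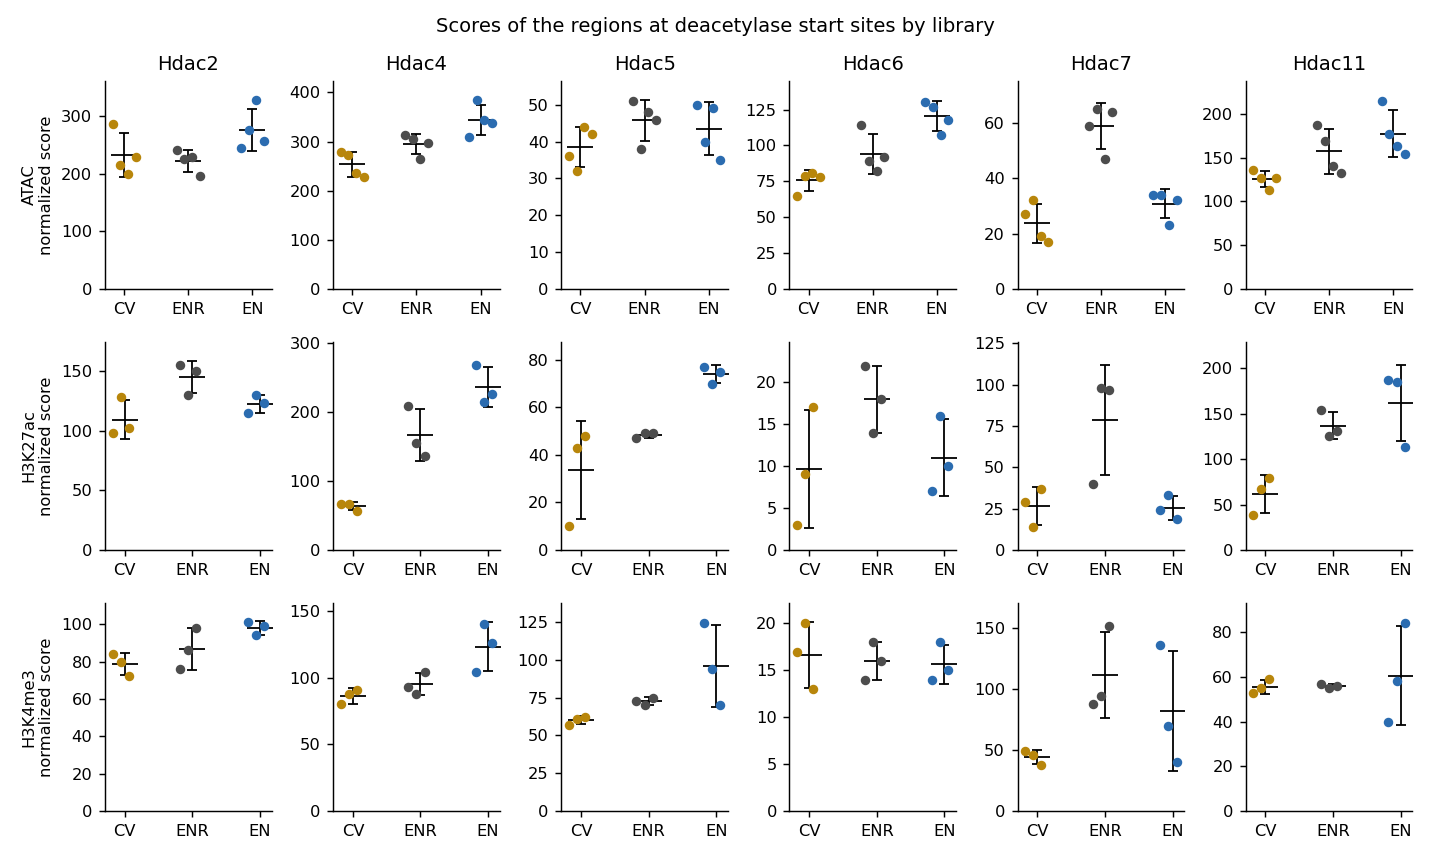
Normalized scores (vertical axes, starting at 0) of ATAC, H3K27ac and H3K4me3 at the regions of 6 members in each library (points), with the mean and SD (black). H3K27ac at Hdac4 and Hdac11 is low in the CV libraries, ATAC at Hdac7 is high in the 4 ENR libraries, and ATAC at Hdac6 is highest in EN.

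Beyond the promoters, 15 regions lay in the body of Hdac4. Of these, 5 were more open and 2 less open in EN than in CV, and 5 were less open in CV than in ENR with none more open. Hdac8 had 4 such regions, 3 of them more open in EN than in CV (log2 differences of the 4 from 1.09 to 1.60). Hdac3, Hdac5, Hdac7 and Hdac11 had 3 such regions each. Between EN and CV, 1 each of Hdac3 and Hdac7 was less open in EN and 1 of Hdac5 more open. Between EN and ENR, 2 of Hdac7 and 1 each of Hdac3, Hdac4 and Hdac5 were less open in EN. There, 2 of Hdac4 and 1 each of Hdac8 and Hdac11 were more open. Between CV and ENR, 1 each of Hdac5 and Hdac7 was less open in CV and 1 of Hdac11 more open. Over all regions, 35.2% were called in ATAC between EN and CV, 24.0% between EN and ENR and 15.8% between CV and ENR.

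Hnf4g, a transcription factor of enterocytes, was profiled in 1 library per culture, so no test was made. Reads inside the regions came to 84340 in CV, 352600 in ENR and 1816497 in EN, which is not the full size of a library. The intervals are exact Poisson ones that cover counting error only. Values in RPM are scaled to the library's total reads in regions, and neither they nor the ranks allow for region length. The Hdac1 promoter region had 21 reads in CV (249 RPM, 95% interval 154 to 381), 43 in ENR (122, 88.3 to 164) and 266 in EN (146, 129 to 165). That placed Hdac1 above 97.4% or more of 18086 promoter regions in all 3 libraries. In CV, however, the median promoter region had 0 reads, and the paper describes Hnf4g binding there as almost absent. Whether the CV reads at Hdac1 are binding or background was not tested. The Hdac4 region had 131 RPM in EN (115 to 149), above 96.5% of promoter regions, against 68.1 in ENR (43.6 to 101) and 71.1 in CV (26.1 to 155), the CV interval spanning that of EN. Hdac6, with 7.71 RPM from 14 reads (4.21 to 12.9), and Hdac8, with 2.75 RPM from 5 reads (0.894 to 6.42), were lowest in EN, where the median promoter region had 17.1.

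Cdkn1a and H1f0, widely used as readouts of deacetylase inhibition, were looked up beside the enzymes. Cdkn1a, the cell cycle inhibitor p21, measured 27 to 29.1 CPM in CV, 11.1 to 14.7 in ENR and 25 to 33.2 in EN. It was higher in CV than in ENR (log2 1.15, adjusted p = 1.46e-07) and also in EN, which had no valproic acid, than in ENR (1.23, adjusted p = 3.86e-08). H1f0, the linker histone H1.0, measured 824 to 853 CPM in CV, 466 to 498 in ENR and 438 to 541 in EN, with ENR and EN overlapping (log2 0.79 for CV against ENR, adjusted p = 2.37e-09; EN minus ENR 0.01, adjusted p = 0.907). With spike-in library sizes both were still called higher in CV than in ENR, and on mRNA copies 1 of the 2. On mRNA copies both were also called higher in EN than in ENR.

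The complexes that carry the class I enzymes changed subunit by subunit. By TMM, 41.2% of all transcripts were called lower and 35.2% higher in EN than in CV, and the counts below are read against these. Of 15 NuRD transcripts, 8 were lower and 5 higher in EN than in CV, against 9 and 2 with spike-in library sizes and 0 and 5 on mRNA copies. Rbbp7, a histone chaperone subunit, was lower (273 against 100 CPM, log2 -1.45) as was Mta1 (-1.20), whereas its paralogue Mta3 (2.10) and the remodeler Chd3 (1.62) were higher. Of 13 Sin3 transcripts, 4 were lower and 6 higher (0 and 9 on mRNA copies), among them Fam60a (-1.35) and Brms1l (-1.22) against Sap30l (1.16) and Arid4a (0.61). Of 10 CoREST transcripts, 3 were lower and 4 higher (1 and 6 on mRNA copies), with Rcor2 falling from 35.6 CPM in CV and 15.1 in ENR to 2.85 in EN (log2 EN minus CV -3.59, adjusted p = 3.32e-12), Kdm1a, the H3K4 demethylase, at -0.37 and Gse1 at 1.32. In the NCoR/SMRT list of 7, which holds the partners of Hdac3, 2 were higher, both of Ncor1 (1.30 and 1.18), and 2 lower, Cops2 NM_009939.3 (-0.53) and Tbl1x (-0.23), while of the MiDAC complex neither measured transcript was called. The sign of the list medians depends on the scale, since on mRNA copies the NuRD median was 0.22 against -0.35 by TMM.

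For the enzymes that write acetyl marks and the proteins that read them, the calls between CV and ENR went 1 way by TMM and were mostly lost on mRNA copies. Of 11 acetyltransferase transcripts, 7 were lower in CV and none higher (median log2 -0.44), with Crebbp at 17.7 CPM in CV, 39.9 in ENR and 59.0 in EN. Of 16 bromodomain transcripts, 12 were lower and none higher (median -0.60), including Baz2b (-1.34) and Brpf3 (-1.18), and of 6 cohesin transcripts all were lower (median -0.71). With spike-in library sizes the lower counts were 5, 8 and 5, and on mRNA copies 0, 1 and 1, with none higher on either scale. Over all transcripts, 29.8% were called lower in CV than in ENR by TMM. In EN against CV the named transcripts of these lists went both ways by TMM. Hat1, which acetylates new histone H4, fell from 86.1 to 13.8 CPM (log2 -2.65), Kat2a fell by 1.73 and Atad2 fell by 3.93 on the log2 scale. On that scale Crebbp rose by 1.74, Naa60 by 1.40, Baz2b by 2.14 and Brpf3 by 1.94.

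Among the sirtuins, the NAD-dependent deacetylases that valproic acid does not target, 2 of 7 were higher in EN than in CV and none lower by TMM, a smaller share than the 76.4% of all transcripts called. With spike-in library sizes 1 was higher and 1 lower, and on mRNA copies 5 were higher and none lower. Sirt1 measured 20.3 CPM in CV, 52.3 in ENR and 40.1 in EN, and was the 1 sirtuin called lower in CV than in ENR (log2 -1.37, adjusted p = 2.04e-10), whereas Sirt7 (0.47) and Sirt2 (0.47) were called higher. Of 7 transcripts for acetyl-CoA supply, 5 were lower in EN than in CV, including Acly (-0.76) and Acss1 (-0.95), and 2 were higher, Dld (0.21) and Slc25a1 (0.23). On mRNA copies none was lower and 2 were higher. Of the 16 transcripts of class IIa partners, 9 were lower and 3 higher in EN than in CV, against 9 and 0 with spike-in library sizes and 2 and 5 on mRNA copies. The kinase Prkd3 fell (-2.88), as did Camk1 (-2.66), and Mef2d (0.70) and Rfxank (0.94) rose by TMM. Of 9 transcripts of class IIb substrates, 6 were lower, among them Tuba1b (-2.22) and Hsp90aa1 (-1.79), and 2 higher, Cttn (0.19) and Vcp (0.33). On mRNA copies 3 were lower and 2 higher.

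**Figure D5:**
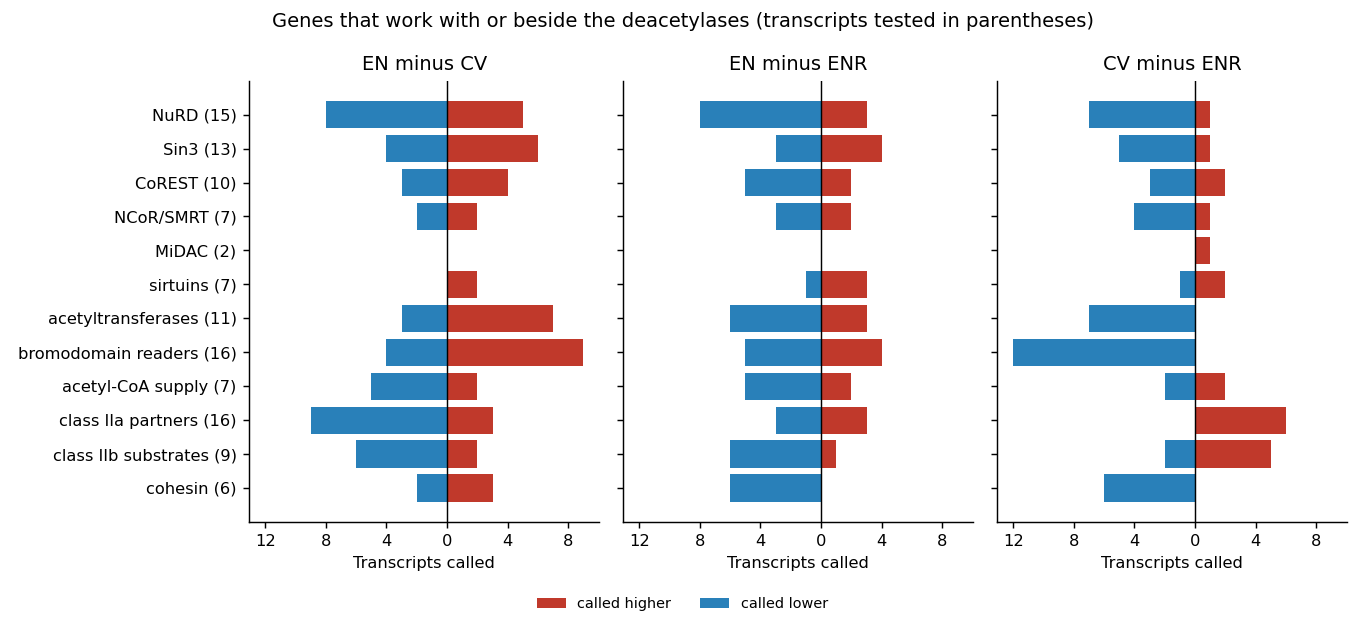
Number of transcripts called higher (red, to the right) and lower (blue, to the left) in the lists of complexes, writers, readers and partners of the deacetylases in the 3 comparisons, by edgeR on TMM-scaled counts, with the number tested in parentheses. The bromodomain list has 12 lower and none higher between CV and ENR (1 lower on mRNA copies), while NuRD, Sin3 and CoREST have calls in both directions between EN and CV (NuRD and Sin3 in 1 direction on mRNA copies).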

How the data were processed

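RNA was ribosomal RNA-depleted with ERCC spike-ins. Expected counts, TPM and mRNA copies (score scale) were made by the authors with kallisto (0.43.0 per the processing notes) and deposited per transcript, restricted to genes with quantified protein. Reads of ATAC-seq and of the marks were aligned to mm9 with BWA and called with MACS2, and the authors deposited, over 94469 merged regions, normalized scores rounded to whole numbers; Hnf4g was deposited as raw counts. Here, edgeR 4.0.16 (TMM, quasi-likelihood test, 12 libraries, a count above 0 in at least 4, Benjamini-Hochberg adjustment) tested rounded counts, and limma 3.58.1 with a trend tested log2(score + 1) for regions above 0 in at least 3 libraries. Both were tested on simulated data. Total depth was 5630977 to 8859757 counts per RNA library, and 3 counts corresponded to 0.362 to 0.642 CPM. Levels between genes used TPM. All transcripts and promoter regions of the members were named, and for each gene list the largest called changes between CV and EN or all of a short list. The members and lists were chosen with earlier results of these data known. Same-numbered libraries correlated between -0.08 and 0.11 in RNA and from 0.07 to 0.46 in ATAC, where 4 of the 12 such pairs were under 0.1. Differently numbered ATAC pairs ran from -0.45 to 0.21. With a block on the number, ATAC calls over all regions rose from 33155 to 34713 between EN and CV. They rose from 22616 to 26019 between EN and ENR and from 14860 to 16461 between CV and ENR. Since not every pair was over 0.1 and the labels give no shared origin, the numbers were not taken to pair libraries. The main ATAC tests therefore do not model any structure shared by same-numbered libraries. Alternatives were DESeq2 1.42.0, other scalings, filters, thresholds and pseudocounts, a replicate block and leaving out each library. Knockout libraries were not analysed here. Promoters came from RefSeq (GRCm38.p6), with entries for 7 members.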

Additional observations from a re-analysis of the deposited data

How the results depend on the processing

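Between EN and CV, and between EN and ENR, 5 or 6 members were called in RNA under every alternative run on all libraries, but they were not the same members in each. Between EN and ENR on mRNA copies, Hdac3 (adjusted p = 0.0055) and Hdac8 (0.00172) were called higher, Hdac4 was called at 0.95 (9.8e-05), and Hdac1, Hdac6 and Hdac10 lost their calls, and with spike-in library sizes Hdac8 was called at -0.72 (0.00292). Leaving out 1 library gave 5 to 6 between EN and CV, 6 between EN and ENR and 4 to 5 between CV and ENR. Between CV and ENR, 3 members were called with spike-in library sizes and 1 on mRNA copies, and the listed genes called fell from 107 to 56 and 27. Signs turned as follows. On mRNA copies, EN minus CV was 0.035 for Hdac3 and 0.59 for Hdac8, EN minus ENR was 0.42 for Hdac1, 0.77 for Hdac3, 0.81 for Hdac8 and 0.65 for Hdac10, and CV minus ENR was 0.22 for Hdac8, 0.14 for Hdac4 and 0.26 for Hdac6. With spike-in library sizes, EN minus CV was -0.19 for Hdac4 and -0.12 for Hdac10, and EN minus ENR was -0.46 for Hdac4 and -0.031 for Hdac5. On TPM with a pseudocount of 1 or 0.1, EN minus CV was -0.11 or -0.13 for Hdac4 and -0.018 or -0.019 for Hdac10, EN minus ENR was -0.13 or -0.15 for Hdac4, and CV minus ENR was 0.075 or 0.081 for Hdac8 and 0.11 or 0.12 for Hdac6. Upper quartile normalization gave -0.11 for Hdac4 between EN and ENR. Leaving out 1 library moved Hdac4 between EN and ENR from -0.13 to 0.11 and Hdac6 between CV and ENR from -0.091 to 0.046. The cause was not tested.

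At promoters, quantile normalization turned ATAC at Hdac2 (EN minus CV -0.087), ATAC at Hdac4 (EN minus ENR -0.015) and H3K27ac at Hdac2 (CV minus ENR 0.00034). Without a trend on the mean, the regions called were 1 in each of the 3 ATAC comparisons, 0 for H3K27ac between EN and CV and between CV and ENR, and 1 for H3K4me3 between CV and ENR, which was also 1 without a filter on low scores. Over all 94215 regions tested for H3K27ac, the fit without a trend called 924 between EN and CV and 0 between CV and ENR. Quantile normalization gave 1 for ATAC between EN and ENR, 1 and 0 for H3K27ac between EN and CV and between CV and ENR, and 1 for H3K4me3 between EN and CV. At an adjusted p under 0.01, 1 remained for ATAC between EN and ENR and between CV and ENR, 1 for H3K27ac between EN and CV and 0 between CV and ENR. With log2(score + 5), H3K27ac had 1 between EN and ENR and 2 between CV and ENR, and adding the Hdac4 region, chosen after seeing the data, also gave 2 there. Leaving out 1 library gave 1 to 3 for ATAC between EN and ENR, 1 to 2 between CV and ENR, 1 to 2 for H3K27ac between EN and CV, and 0 to 1 for H3K27ac in both ENR comparisons and for H3K4me3 between EN and CV and between CV and ENR. With the replicate number as a block, H3K27ac had 0 calls between EN and CV and between CV and ENR, and no RNA member changed its call. Over all 94215 regions tested for H3K27ac, the block also left 0 calls in each comparison, so this loss was not particular to the members. In H3K27ac, CV library 5 and ENR library 1 share their number with no other library. The block therefore left little from which to estimate the spread, and the lost calls say little about these regions. The block lost H3K27ac at Hdac5 (EN minus CV, adjusted p = 0.214), Hdac11 (0.198, and 0.37 for CV minus ENR) and Hdac4 (1.72, adjusted p = 0.157, and -0.97, 0.368), and gained ATAC at Hdac2 (EN minus ENR 0.31, adjusted p = 0.0422) and Hdac11 (CV minus ENR -0.31, 0.0276). The numbers share no stated origin. Few libraries per mark and low scores limit the histone results.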
